A study of Mus musculus with 6 samples.

Results

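The Bcl6 locus was examined on mouse chromosome 16 (GRCm38), from chr16:23960000 to chr16:24400000, a window of 440 kb that holds the Bcl6 gene (chr16:23965050-23988866, minus strand), the 404 kb between the Bcl6 start and the neighbouring gene Lpp, and the first bases of Lpp. Members were chosen by position alone, as the CpG positions of this window with at least 10 reads in all 6 libraries. There were 350 of them, out of 1463044 such positions in the genome. A position is the cytosine of a CpG on one strand, so a CpG read on both strands counts as a pair of positions. The study compared germinal centre B cells from the spleen of C57BL/6 mice of 2 genotypes, with 3 libraries labelled Tet2 wild-type (WT) and 3 labelled Tet2 knock-out (KO). The labels used here do not give age, the form of the Tet2 allele, any Cre driver, the immunisation or the sorting gate, nor whether the libraries came from separate mice. The p-values therefore measure only how far these libraries spread, some of which may be technical.

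BCL6 is a zinc finger transcriptional repressor that germinal centre B cells need: it recruits corepressors such as BCOR and NCOR1 to its targets and holds back genes of plasma cell differentiation, cell cycle arrest and the DNA damage response. The long stretch upstream of the gene, towards Lpp, is known in germinal centre B cells to carry distal enhancers that act on Bcl6. TET2 oxidises 5-methylcytosine to 5-hydroxymethylcytosine as a step towards demethylation. Bisulfite reads both forms as methylated, so each methylation level here, the percent of reads that kept their cytosine, is the sum of the pair.

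The libraries held 174375503 to 203863392 CpG reads, with a mean coverage of 100.6 to 124.6 reads per listed position. Within the window the mean coverage of the 350 members was 121 to 133 reads in WT libraries and 129 to 139 in KO libraries. Relative to each library's own mean, coverage of the window was 1.03 ± 0.0491 (SD, n = 3) in WT and 1.06 ± 0.0136 (SD, n = 3) in KO, with an exact two-sided permutation p of 0.5. As a check of the labels, 6 positions of Tet2 were listed in every WT library and in no KO library, none showed the reverse, and 108 were listed in all 6. Cell identity could not be settled from the starts of marker genes. The 89 positions at the Bcl6 start and 44 at the start of S1pr2, a sphingosine phosphate receptor of germinal centre B cells, had group means under 1%. Low levels were common, with 890973 of 1463044 positions averaging under 20%, so these values cannot tell cell types apart. The starts of Mef2b, Ccr7, Cd3e, Cd4, Cd8a, Itgam, Lyz2 and Csf1r had 0 covered positions. That of Gpr183, listed as a marker of follicular B cells, had 1, which was also low, at 9.33% in WT and 4.56% in KO. The part of other cell types in the results was not tested.

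A pair of annotated starts of Bcl6 and the start of Lpp lie in the window, and their sequences show what the assay reads there. The assay cuts at CCGG, so it reads CpG-dense starts far more closely than the sparse stretch between the genes. Each sequence is RefSeq's, on GRCm38.p6, 250 bases before to 50 bases after an annotated start, 5′ to 3′ on the strand of the gene. Capitals mark the CpGs measured in all 6 libraries on at least one strand. The first is the outer Bcl6 start (chr16:23988803-23989102), the next the inner start 7.6 kb into the gene (chr16:23981234-23981533), and the last the Lpp start (chr16:24393100-24393399).
Bcl6 start at 23988852: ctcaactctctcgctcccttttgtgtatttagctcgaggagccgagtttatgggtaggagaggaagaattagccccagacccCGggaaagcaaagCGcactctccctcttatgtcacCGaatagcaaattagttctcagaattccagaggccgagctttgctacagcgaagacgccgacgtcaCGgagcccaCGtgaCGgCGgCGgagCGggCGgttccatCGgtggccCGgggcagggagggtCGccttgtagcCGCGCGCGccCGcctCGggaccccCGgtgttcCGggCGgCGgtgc
Bcl6 start at 23981283: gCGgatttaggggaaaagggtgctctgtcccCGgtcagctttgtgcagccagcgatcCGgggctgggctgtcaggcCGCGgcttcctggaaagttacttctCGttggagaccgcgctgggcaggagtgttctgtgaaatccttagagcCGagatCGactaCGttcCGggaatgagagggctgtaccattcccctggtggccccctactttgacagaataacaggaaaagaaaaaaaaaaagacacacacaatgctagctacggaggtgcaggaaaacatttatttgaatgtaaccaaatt
Lpp start at 24393350: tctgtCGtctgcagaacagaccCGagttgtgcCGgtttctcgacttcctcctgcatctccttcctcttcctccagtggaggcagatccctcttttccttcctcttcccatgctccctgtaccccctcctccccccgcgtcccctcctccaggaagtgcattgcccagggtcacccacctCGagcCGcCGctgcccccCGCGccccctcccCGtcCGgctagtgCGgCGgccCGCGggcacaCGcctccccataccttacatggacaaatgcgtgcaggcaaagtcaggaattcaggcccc

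The outer Bcl6 sequence holds 31 CpGs, of which 23 were measured, the inner one 14, of which 10 were measured, and the Lpp one 19, of which 15 were measured. The median over 32851 RefSeq promoters of the same length is 7 CpGs. CCGG, the cutting site, occurs 4 times in the outer Bcl6 sequence, 3 times in the inner one and 2 times in that of Lpp, and at least once in 52.8% of all promoters. The letters TTCNNNGAA, the same on both strands and the core that STAT factors recognise, occur 1 time in the outer Bcl6 sequence, 3 times in the inner one and 0 times in that of Lpp, against at least once in 8.30% of all promoters. TTCCTAGAA, searched on both strands as a match to the BCL6 motif, occurs in none of the 3 and in 0.411% of all promoters. These matches describe letters in the windows and say nothing of binding.

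The Bcl6 start was almost free of methylation in both genotypes. The 89 positions within 1 kb of the annotated end facing Lpp averaged 0.0123%, 0.102% and 0.165% in WT replicates 1 to 3 and 0.103%, 0.269% and 0.0565% in KO replicates 1 to 3. The groups overlapped, at 0.0930% ± 0.0769 (SD, n = 3) in WT and 0.143% ± 0.112 (SD, n = 3) in KO, with an exact two-sided permutation p of 0.6. The KO mean was the higher here and the lower with 2 kb on either side (a difference of -0.0575 points) or without KO replicate 2 (-0.0130 points). Of the 89 positions 52 were at 0% in all 6 libraries, and the highest level of any position in any library was 10.3%. In the outer promoter sequence printed above, 21 of 32 measured positions were at 0% in every library, and no value exceeded 2.57%.

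The gene body divided into an unmethylated front and a methylated interior. Outside the start, its 79 positions fell into 48 under 5% and 22 over 80%. Their mean was 25.2%, 27.5% and 27.5% in WT replicates 1 to 3 and 27.5%, 26.8% and 27.5% in KO replicates 1 to 3. The groups overlapped, at 26.7% ± 1.33 (SD, n = 3) in WT and 27.3% ± 0.394 (SD, n = 3) in KO, a difference of 0.514 points with an exact two-sided permutation p of 0.9 (0.9 after Benjamini-Hochberg adjustment over the stretches of the window). The sign of this small difference was not stable: it was -2.03 points with reads pooled over positions and -0.255 points without WT replicate 1. With reads summed over the whole body, 155 positions with the start included, the level was 13.8% ± 1.73 (SD, n = 3) in WT and 12.5% ± 1.71 (SD, n = 3) in KO. That difference of -1.24 points was not called by the quasi-binomial model moderated as in limma (adjusted p = 0.725), in a table where 0.0169% of 11852 tested gene bodies were called. It was -0.264 points without KO replicate 2 and -2.24 points without WT replicate 3.

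The inner Bcl6 start carried some methylation. Its 13 measured positions averaged 2.70%, 9.04% and 6.00% in WT replicates 1 to 3 and 7.43%, 5.53% and 6.66% in KO replicates 1 to 3. The WT libraries spanned the KO ones, and the means of 5.92% ± 3.17 (SD, n = 3) and 6.54% ± 0.956 (SD, n = 3) differed by less than that spread. The highest level of any position in it was 29.7%. Deeper in the gene, 3 tiles of 1 kb lay between 85.8% and 94.6% in both groups. The tile at chr16:23973001-23974000, with 8 positions, had 83.0%, 84.6% and 89.8% in WT and 88.1%, 91.7% and 88.4% in KO (adjusted p = 0.510 from the moderated quasi-binomial model). The tile at chr16:23977001-23978000, with 7 positions, was the lower in KO, with 90.7% ± 0.957 (SD, n = 3) in WT and 87.8% ± 2.03 (SD, n = 3) in KO, without overlap (adjusted p = 0.735 from the same model).

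**Figure D1:**
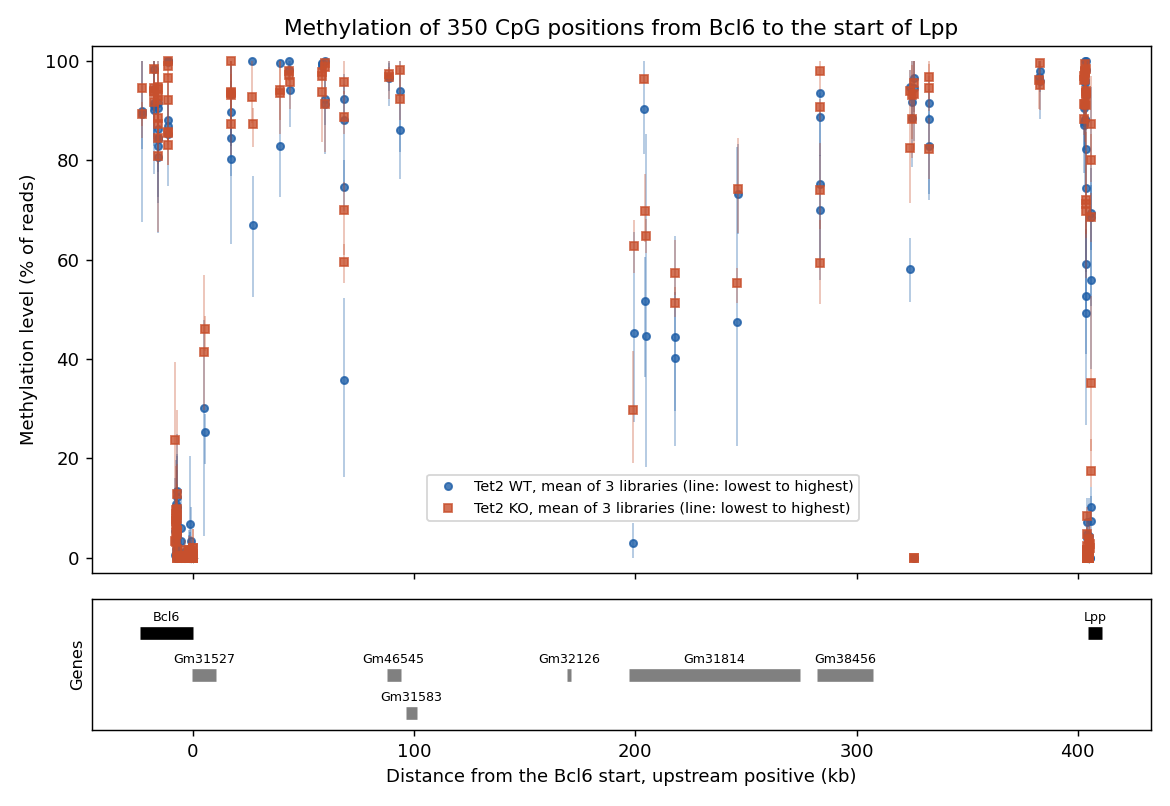
Methylation level (percent of reads, vertical axis) of the 350 CpG positions against distance from the Bcl6 start in kb (horizontal axis, upstream positive), with the annotated genes in the lower panel. Blue circles are means of 3 WT libraries and orange squares means of 3 KO libraries, with lines from the lowest to the highest library. The Bcl6 and Lpp starts sit near 0%, and most positions between the genes lie above 80%, with a run of intermediate ones about 200 to 250 kb upstream.

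The upstream stretch was methylated in both genotypes and higher in every KO library than in any WT library. It runs from 1 kb beyond the Bcl6 start to 1 kb before Lpp (chr16:23989867-24392349) and holds 65 positions, so it is sparsely read. Its mean was 77.7%, 79.7% and 80.1% in WT replicates 1 to 3 and 83.6%, 83.1% and 84.3% in KO replicates 1 to 3. The groups did not overlap, at 79.2% ± 1.28 (SD, n = 3) in WT and 83.7% ± 0.621 (SD, n = 3) in KO. Such separation was not particular to this stretch. Over all 1463044 positions of the genome every KO library was also above every WT library, at means of 33.0% in WT and 33.8% in KO. The same held for intergenic positions, the windows on either side and the Pax5 and Ebf1 gene bodies. For the upstream stretch the values were as follows. The difference was 4.48 points, with an exact two-sided permutation p of 0.1, the smallest that 3 against 3 libraries can give (0.18 after Benjamini-Hochberg adjustment over the stretches). The mean difference stayed between 3.75 and 4.77 points when each library was left out in turn. It was 2.47 points with the stretch run to the window end, which adds the mostly unmethylated Lpp end.

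**Figure D2:**
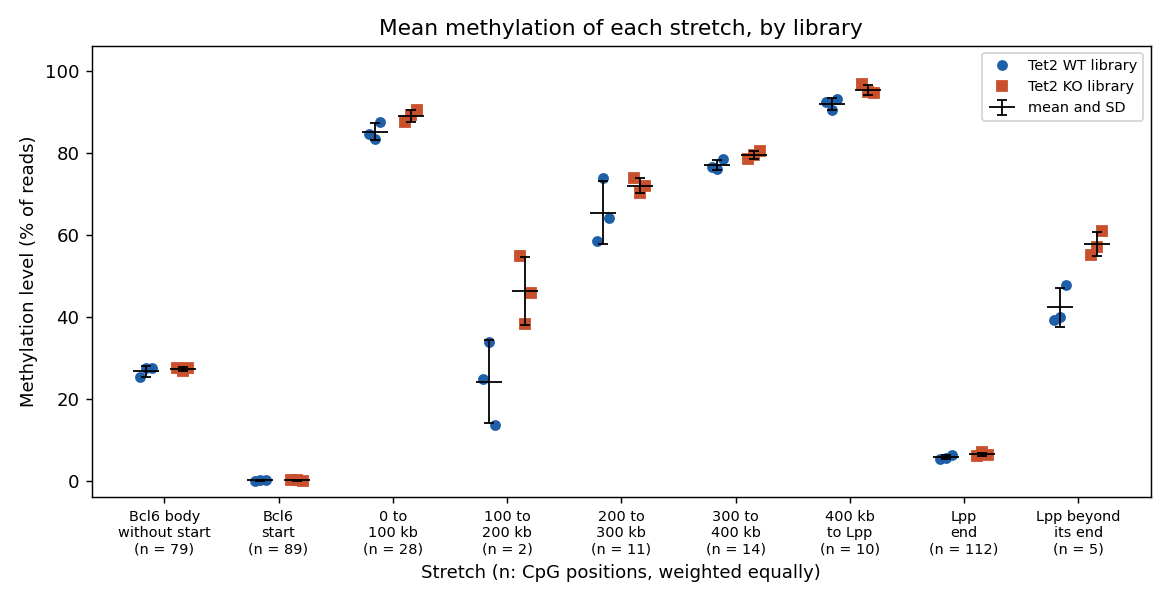
Mean methylation level (percent, vertical axis) of each stretch of the locus in each library, with the group mean and SD of 3 WT and 3 KO libraries. Horizontal labels give the distance from the Bcl6 start. Every KO library lies above every WT library in each 100 kb step of the upstream stretch but that from 200 to 300 kb, by under 0.1 points from 0 to 100 kb and from 300 to 400 kb, and the groups overlap at the gene start and in the gene body.

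Most tested positions of the upstream stretch had the higher mean in KO, and none was called. Of 42 positions with a mean of 5% to 95%, which were those tested, 32 had the higher mean in KO, against 58.9% of all tested positions in the genome. In 7 of the 42 every KO library was above every WT library, against 8.3% genome-wide, and in 0 every KO library was below, against 4% genome-wide. A call needed group means 10 points or more apart and an adjusted p under 0.05. None of the 42 was called, against 0.294% of 525213 tested positions, and 5 reached an unadjusted p under 0.05, against 8.70% genome-wide. In the window as a whole 0 of 79 tested positions were called by the moderated quasi-binomial model, with 11 at an unadjusted p under 0.05, and 0 by limma on log2 ratios, with 4. Limma called 0 of the 525213 positions of the genome, so its 0 here says nothing of the window. The WT libraries had the larger SD at 33 of the 42 upstream positions, against 65.6% of tested positions in the genome.

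The difference within the stretch was larger at intermediate levels than at high ones. Its 47 positions over 80% averaged 92.8% in WT and 94.7% in KO, with 29 higher in KO and a median difference of 0.616 points, against 0.355 points over 424305 such positions in the genome. With each library left out in turn these medians were -0.339 to 0.700 points in the genome, lowest without WT replicate 1. Upstream they were 0.757 to 2.38 points, lowest without KO replicate 3. Its 15 positions at 20% to 80% averaged 46.4%, 58.8% and 51.3% in WT replicates 1 to 3 and 64.1%, 62.0% and 65.0% in KO replicates 1 to 3. The groups did not overlap. In 12 of these 15 the KO mean was the higher, with a median difference of 17.0 points, and over all 147766 positions of this level in the genome 62.5% were higher in KO, with a median difference of 3.54 points. The upstream median fell to 8.15 points without WT replicate 1, whose mean was the lowest of the 6 libraries, and was at most 18.1 points over the other leave-outs, with 9 to 13 positions higher in KO. These classes were cut on the mean of all 6 libraries, and the comparison with the genome is a description without a test.

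From the gene outwards, the first 100 kb held 28 positions. Their mean was 84.5%, 83.4% and 87.4% in WT and 87.4%, 89.1% and 90.3% in KO, a difference of 3.81 points. The lowest KO library exceeded the highest WT library by less than the last printed digit, and the exact two-sided permutation p was 0.1. It was 0.2, with overlap, at a coverage minimum of 20 or 30 and with strands added. The positions about 5 kb from the start had the lowest levels of this part. At chr16:23994095, on the minus strand, the level was 18.9%, 29.0% and 27.8% in WT and 41.7%, 48.7% and 47.6% in KO. All KO libraries were higher, though the adjusted p was 0.785 in the moderated quasi-binomial model, from 18 to 62 reads per library. At chr16:24006181, 17 kb upstream, the level was 95.9%, 80.7% and 76.7% in WT and 100% in each KO library (adjusted p = 0.384 from that model). At chr16:24057343, 68 kb upstream, it was 52.2%, 16.3% and 38.6% in WT and 60.5%, 55.2% and 63.1% in KO (adjusted p = 0.546 from that model).

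The next stretches lay partly in Gm31814, a long noncoding RNA gene (chr16:24186057-24263186). Between 100 and 200 kb only 2 positions were covered, and their mean was 24.9%, 33.8% and 13.7% in WT and 54.9%, 38.2% and 45.8% in KO. The groups did not overlap, and the difference of 22.2 points had an exact two-sided permutation p of 0.1. The position of the smallest p in the upstream stretch is one of these. At chr16:24188023, 199 kb from the Bcl6 start, the level was 7.06%, 2.13% and 0% in WT and 41.7%, 19.1% and 28.6% in KO, from 36 to 85 reads. It was 3.06% ± 3.62 (SD, n = 3) in WT and 29.8% ± 11.3 (SD, n = 3) in KO, with an adjusted p of 0.355 from the moderated quasi-binomial model. The other, at chr16:24188173, had 42.7%, 65.6% and 27.4% in WT and 68.1%, 57.2% and 63.1% in KO, with overlap.

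All 9 covered positions of Gm31814 had the higher mean in KO. Their average was 42.2%, 59.2% and 45.4% in WT replicates 1 to 3 and 67.8%, 57.8% and 61.6% in KO replicates 1 to 3. WT replicate 2 lay above KO replicate 2, so the groups overlapped, at 48.9% ± 9.03 (SD, n = 3) in WT and 62.4% ± 5.03 (SD, n = 3) in KO. At single positions the WT libraries could differ widely: at chr16:24193454 they stood at 30.3%, 85.4% and 18.2%, and the KO libraries at 68.2%, 64.5% and 61.3%, from 11 to 41 reads. The other noncoding genes differed less. Gm46545 had 93.3% in WT and 96.1% in KO over 4 positions, and Gm38456 had 81.8% and 80.5% over 4.

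**Figure D3:**
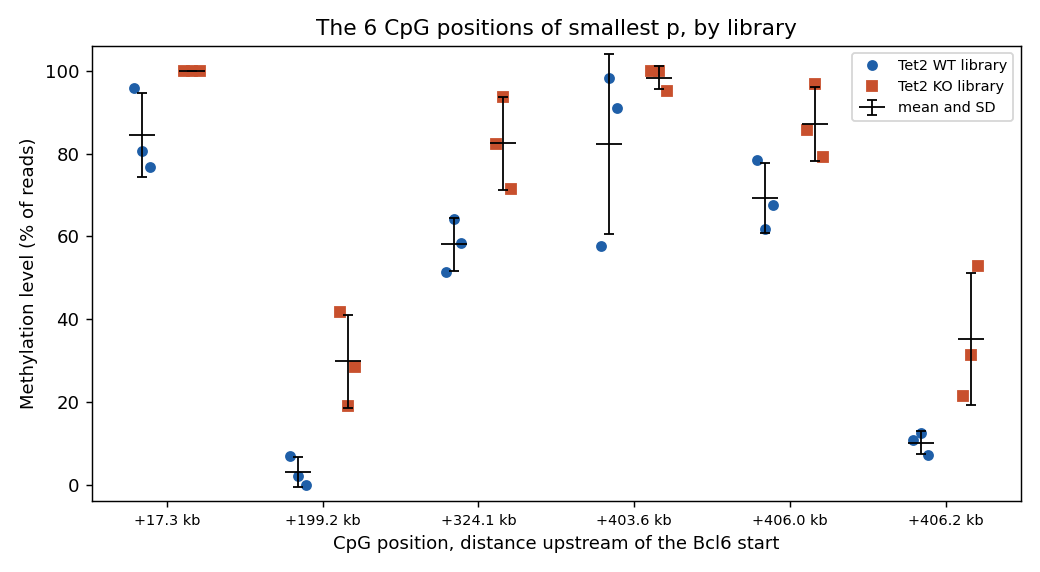
Methylation level (percent, vertical axis) in each of the 6 libraries for the 6 CpG positions of smallest p in the window, placed by their distance upstream of the Bcl6 start in kb, with the mean and SD of each group of 3. At the position 199 kb upstream the 3 WT libraries lie between 0% and 7.06% and the 3 KO libraries between 19.1% and 41.7%.

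Between 200 and 300 kb the groups overlapped. The mean of 11 positions was 58.4%, 73.8% and 64.0% in WT and 73.7%, 70.1% and 71.9% in KO, a difference of 6.52 points with an exact two-sided permutation p of 0.4. It was 3.04 points without WT replicate 1 and 10.7 points without WT replicate 2. It was 2.61 points with pooled reads, and 3.22 or 3.52 points at a coverage minimum of 20 or 30. Between 300 and 400 kb, 14 positions averaged 77.0% ± 1.24 (SD, n = 3) in WT and 79.4% ± 0.920 (SD, n = 3) in KO, with an exact permutation p of 0.1. That difference of 2.44 points was 4.83 with pooled reads, with overlap and an exact p of 0.2. There, at chr16:24312947, the level was 51.5%, 64.3% and 58.4% in WT and 82.3%, 93.8% and 71.4% in KO, without overlap (adjusted p = 0.386 from the moderated quasi-binomial model). In the last step, from 400 kb to 1 kb before Lpp, 10 positions had 92.2%, 90.3% and 93.1% in WT and 96.6%, 94.7% and 94.5% in KO, and the groups did not overlap.

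At 2 CpGs in that stretch the strands disagreed completely. At chr16:24314721 the plus strand averaged 96.6% in WT and 93.4% in KO, and the minus strand at chr16:24314722 was at 0% in all 6 libraries. At chr16:24314768 the plus strand was at 0% in all 6, and the minus strand at chr16:24314769 averaged 94.6% in WT and 95.6% in KO. The mean of the tile holding them, 47.8% in WT and 46.9% in KO, therefore describes no single position. Whether the mice differ from the reference there was not tested. Without the 2 positions at 0% the mean of the 300 to 400 kb step was 89.8% in WT and 92.6% in KO, and that of the upstream stretch 81.7% and 86.3%, a difference of 4.62 points.

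At the Lpp end most positions were unmethylated, and a few at its edge facing Bcl6 were not. The 112 positions within 1 kb of the annotated Lpp end averaged 5.74% ± 0.506 (SD, n = 3) in WT and 6.47% ± 0.406 (SD, n = 3) in KO, with an exact two-sided permutation p of 0.2. Of these, 67 were at 0% in all 6 libraries. The difference of 0.732 points turned to -0.101 points with reads pooled over positions. The printed Lpp promoter sequence averaged 0.393% in WT and 0.135% in KO. At the edge facing Bcl6, a CpG read on both strands had 52.7% in WT and 69.7% in KO on the plus strand at chr16:24392656, and 49.3% and 71.2% on the minus strand at chr16:24392657.

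Just inside Lpp the KO libraries were higher again. The 5 positions more than 1 kb inside it averaged 39.1%, 40.0% and 47.8% in WT and 55.1%, 57.1% and 61.0% in KO, and all 5 had the higher mean in KO. At chr16:24395021, the position with the smallest p in the whole window, the level was 10.9%, 12.5% and 7.26% in WT and 21.6%, 31.4% and 52.8% in KO, from 64 to 139 reads. The adjusted p was 0.209 in the moderated quasi-binomial model. At chr16:24394898 the level was 78.4%, 61.9% and 67.6% in WT and 85.7%, 96.9% and 79.1% in KO, without overlap (adjusted p = 0.356 from that model). At chr16:24392434, before the Lpp start, WT replicate 1 stood apart at 57.6% from 98.4% and 90.9% in the other WT libraries, and the KO libraries were at 100%, 100% and 95.1% (adjusted p = 0.448 from that model).

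In tiles of 1 kb with at least 3 positions, the window held 22, of which 12 were tested and 0 were called, against 0.687% of 83114 tested tiles in the genome. Of the 12, 1 reached an unadjusted p under 0.05, against 11.5% of tested tiles in the genome, and limma on log2 ratios called 0 with 1 at that level. Limma also called 0 of the 83114 tiles of the genome, so its 0 here says nothing of the window. The KO mean was the higher in 8 of the 12, against 64% of tested tiles, and the median difference was 2.41 points against 1.28 points. Groups did not overlap in 2 tiles with KO above, against 12.7% of tested tiles, and in 1 with KO below, against 3.54%. The tile of smallest p, chr16:24394001-24395000 inside Lpp, had 12.5%, 10.6% and 17.8% in WT and 24.6%, 17.3% and 21.4% in KO over 14 positions. WT replicate 3 lay just above KO replicate 2, and the adjusted p was 0.186 in the moderated quasi-binomial model. Without WT replicate 3 the adjusted p was 0.0467, with a difference of 9.57 points, under the 10 required.

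The nearest covered tile upstream of the gene lay at chr16:24006001-24007000, with 5 positions. Its level was 89.3%, 86.0% and 90.04% in WT and 90.9%, 94.3% and 96.7% in KO, without overlap (adjusted p = 0.578 from that model). The tile next to Lpp, chr16:24391001-24392000, had 91.2% ± 3.11 (SD, n = 3) in WT and 94.6% ± 1.08 (SD, n = 3) in KO, also without overlap (adjusted p = 0.477 from that model). On the gene side, the tile over the start, chr16:23988001-23989000, had 81 positions and group means of 0.0437% and 0.199%. The tile before it in the gene, chr16:23987001-23988000, had 30 positions and 0.550% in WT against 0.198% in KO, with every KO library below every WT library. Both were under 5% and were not tested.

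Whether the upstream stretch differed more than other regions was tested within libraries, as its mean minus the other region's mean, in 5 comparisons. The Bcl6 gene body, with its start included, had an unweighted mean of 13.67% in WT and 13.96% in KO, and most of its positions were under 5%. Positions under 20% differed little over the genome, at 1.42% in WT and 1.65% in KO. A comparison with this body therefore cannot separate place from level, and no conclusion is drawn from it. The other regions also lay below the 79.2% of the upstream stretch in WT, at 34.8% to 69.8%, with intergenic positions at 64.9%. Because differences between KO and WT varied with level, those comparisons do not separate place from level either. Against the Bcl6 gene body the difference between KO and WT was 4.19 points larger upstream, with an exact two-sided permutation p of 0.1 (0.167 after Benjamini-Hochberg adjustment over the 5). Against 295315 intergenic positions, whose mean was 0.996 points higher in KO, it was 3.48 points larger, with the same p-values, and with pooled reads 2.26 points larger, with an exact p of 0.4. Against the windows of equal length on either side, 118 positions with 69.8% in WT and 73.0% in KO, it was 1.27 points larger, with an exact p of 0.4 (0.5 adjusted). That value was 0.746 points without KO replicate 3, 2.19 points without KO replicate 2 and 0.784 points with pooled reads. The bodies of Pax5 and Ebf1, which encode other B-cell transcription factors, were compared the same way. The Pax5 body had 34.8% in WT and 39.1% in KO. The difference between KO and WT was 0.157 points larger upstream than there, with an exact p of 0.9 and a sign that turned to -0.610 points with pooled reads. The Ebf1 body had 39.6% in WT and 46.3% in KO, and the difference upstream minus that in Ebf1 was -2.21 points, with an exact p of 0.1 (0.167 adjusted), and -3.84 points without WT replicate 3 or -3.51 points with pooled reads.

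Over 15885 gene bodies, likeness was measured as the root mean square difference in level over the 6 libraries. Closest to the Bcl6 body were Nt5dc2 at 0.301 points, Dtnbp1 at 0.315, Gmeb1 at 0.330, Stx18 at 0.344 and Eif3h at 0.344, and 322 bodies lay within 1 point. Closest to the upstream stretch were the bodies of Atp2b4 at 0.684 points, Auh at 0.931, Morn3 at 0.958, Dock2 at 1.09 and Proz at 1.18, and 3 lay within 1 point. Atp2b4, which encodes a plasma membrane calcium pump, had a body level of 79.0% in WT and 83.1% in KO.

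Around the locus stand the proteins that act with BCL6, those that regulate the gene and the genes it represses. Tiles in or within 1 kb of each gene were counted. Among BCL6 corepressors and partners 2 of 66 tested tiles were called higher in KO and 0 lower, among regulators of Bcl6 4 of 73 and 0, and among genes repressed by BCL6 1 of 37 and 0, against 0.687% of all tested tiles called in either direction. All 7 called tiles were higher in KO, as were 569 of the 571 called in the genome. The KO mean was the higher in 83.3%, 90.4% and 81.1% of their tiles, with median differences of 3.05, 4.90 and 3.01 points, against 64% and 1.28 points over all tested tiles. These counts and medians describe the lists and were not tested as sets. The 4 called tiles of the regulators include 1 of Irf4 with a WT mean under 5%, tested only through its KO levels.

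Among the corepressors, a tile of Bcor at chrX:12073001-12074000 had 10.2%, 24.9% and 20.5% in WT and 43.8%, 54.2% and 55.5% in KO (adjusted p = 0.0245 from the moderated quasi-binomial model). The mean level over the X chromosome was 37.4% to 38.2% in all 6 libraries, and each library listed 1446 to 1640 positions of the Y chromosome. A tile of Ncor1 at chr11:62343001-62344000 went from 64.7% ± 11.2 (SD, n = 3) to 87.3% ± 2.54 (SD, n = 3), with an adjusted p of 0.0330 from that model. Hdac3, a histone deacetylase that works with NCOR1, and Ezh2, the methyltransferase of histone H3 that is high in germinal centre B cells, had no tested tile.

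Of the regulators, Irf4, whose product represses Bcl6 on the way to plasma cells, had 2 called tiles. That at chr13:30748001-30749000 had 0.136%, 0.922% and 0.182% in WT and 9.82%, 20.5% and 10.7% in KO (adjusted p = 0.0142 from the moderated quasi-binomial model). All WT libraries were close to 0 there and all KO libraries near or above 10%. Its WT mean of 0.413% lay under the 5% needed for testing, so the tile was tested only through its KO levels. At such a WT level only a higher level in KO could be called. The other, chr13:30760001-30761000, went from 58.6% to 77.9% (adjusted p = 0.0150 from that model). A tile of Irf8, a factor of germinal centre B cells, went from 78.6% to 90.9% (adjusted p = 0.0194), and one of Pax5, which maintains B-cell identity, from 33.5% to 53.6% (adjusted p = 0.0475), both from that model. Mef2b, an activator of Bcl6, stood at 46.4% ± 2.06 (SD, n = 3) in WT and 69.2% ± 2.24 (SD, n = 3) in KO over 3 positions and was not called (adjusted p = 0.166 from that model). Pou2f2 stood at 41.1% and 62.3% (adjusted p = 0.0569 from that model).

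Of the repressed genes, Gpr183, the receptor that guides B cells to the outer follicle, had 1 called tile at chr14:121959001-121960000. Its level was 10.7%, 14.1% and 6.10% in WT and 23.4%, 24.8% and 33.7% in KO (adjusted p = 0.0216 from the moderated quasi-binomial model). Prdm1, which encodes the plasma cell regulator BLIMP1, had 72.7% in WT and 78.3% in KO at its tile of smallest p (adjusted p = 0.336 from that model). Trp53 had 85.0% and 93.1% (adjusted p = 0.252), and Cdkn1a had 94.7% and 94.8%, from that model. Ccr6, a chemokine receptor gene, lay the other way, with 79.7%, 92.8% and 80.7% in WT and 76.8%, 66.7% and 59.6% in KO over 3 positions of chr17:8257001-8258000. Every KO library was below every WT library there, and the tile was not called (adjusted p = 0.576 from that model). Each of the 7 calls in the lists was lost with limma on log2 ratios, with an unmoderated dispersion and with all covered tiles tested, where their highest adjusted p was 0.402 to 0.490. Genome-wide, limma and the unmoderated dispersion called 0 tiles, and the test of all covered tiles called 8. The first Irf4 tile was also lost at a coverage minimum of 30, at 9.17 points, and the Pax5 tile with coverage in at least 2 libraries per group (adjusted p = 0.0511). Leaving out WT replicate 1 lost all but the second Irf4 tile, WT replicate 2 that of Pax5 and WT replicate 3 none. Leaving out KO replicate 1 lost those of Bcor, Ncor1, Irf8, Pax5 and the second Irf4 tile, KO replicate 2 all but Bcor, and KO replicate 3 all but the first Irf4 tile. In these cases the adjusted p was 0.0509 to 0.205, except that the first Irf4 tile fell under the tested range without KO replicate 2.

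**Figure D4:**
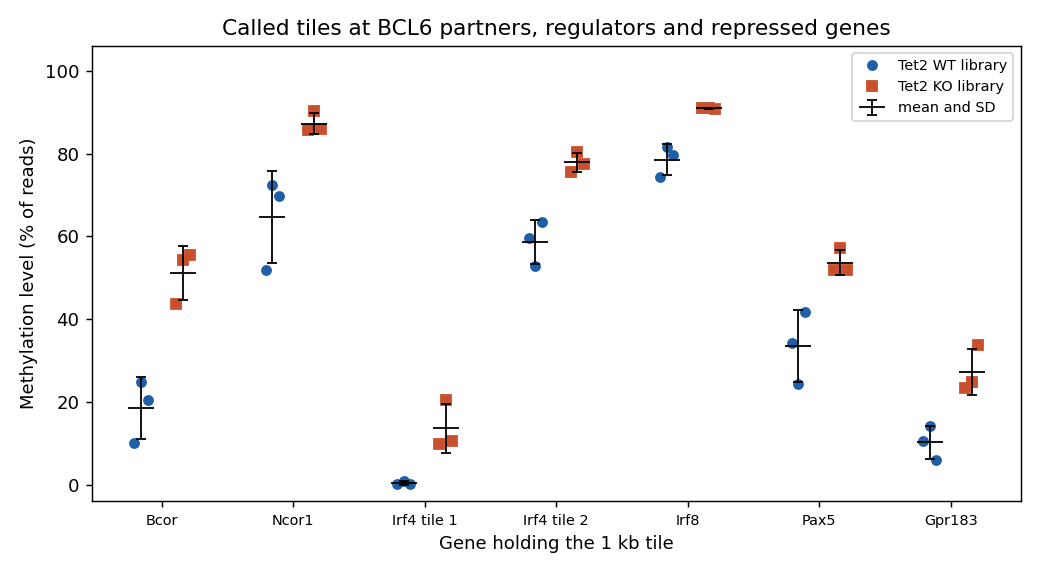
Methylation level (percent) in each of the 6 libraries for the called 1 kb tiles of genes that act with, regulate or are repressed by BCL6, with the mean and SD of each group of 3. In each of the 7 tiles every KO library lies above every WT library, as in 12.7% of all tested tiles. The tiles were picked because they were called, which favours such separation.

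In all, 478 positions of the window were listed in at least 1 library, with 387 to 405 in WT libraries and 360 to 376 in KO libraries. The whole libraries differed the same way, with 1636082 to 1733270 listed positions in WT and 1578479 to 1639266 in KO. Of the 478, 81 were listed in 1 WT library only and 19 in 1 KO library only, and 1 was listed in all WT libraries and no KO library. Requiring only 2 libraries per group added 12 positions to the window, 1 of them in the upstream stretch. That position, chr16:24082289, lay the other way from the stretch, with a mean of 96.6% in 2 WT libraries and 77.6% in KO, from 11 to 29 reads.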

How the data were processed

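The assay was enhanced reduced representation bisulfite sequencing, which reads bisulfite-treated MspI fragments. The authors aligned reads with Bismark to GRCm38, per the submitters' processing notes; the sources used here give neither its version nor its settings. Per the file headers, the deposited files hold a read count (coverage) for each CpG and strand, and the percent of it that was C or T. Methylated counts were recovered from both and were whole at 100% of positions, within rounding to 3 decimals. The lowest deposited coverage was 10. PCR copies cannot be told apart, so read numbers cover counting error only.

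Levels of a stretch are unweighted means over positions covered in all 6 libraries, compared by exact two-sided permutation over libraries. Positions, 1 kb tiles with at least 3 positions, gene bodies with at least 5 and gene ends with at least 3 were tested genome-wide with a quasi-binomial logistic model on read counts. Its Pearson dispersion was moderated by limma's formula, written in Python 3.11.15 with numpy 2.4.6 and scipy 1.17.1, and tested on simulated data. Features with a mean of 5% to 95% over all 6 libraries were tested, with Benjamini-Hochberg adjustment. They were called at an adjusted p under 0.05 with means at least 10 points apart. A feature under 5% in WT could pass this filter through its KO levels, or the reverse. Gene positions and promoter sequences are RefSeq's for GRCm38.p6. No exon or intron annotation was used here.

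Named were all called features, the 6 tiles and 6 positions of smallest p in the window, the tiles next to the gene start, the 5 closest gene bodies, and from each gene list the called tiles or that of smallest p. Other features named were chosen after their values were seen. The window, the gene lists and the markers were chosen with earlier results of these data known. Alternatives covered coverage minimum, tile size and grid, dispersion, limma, strands added, pooled reads, the replicate number as a block and each library left out. Tiles with at least 1 position, an upstream stretch running to the window end and one without its positions at 0% were added after seeing the data. Some genes of these lists are not reported here.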

Additional observations from a re-analysis of the deposited data

How the results depend on the processing

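Over 38 results and 519 alternative values, 460 were counted as unchanged, 12 reversed and 47 lost a call. For single features, unchanged meant the same direction and side of the call threshold. For stretch means, differences between regions and coverage it meant the same direction only, whatever the p, and for counts of calls a like count. The calls lost were those of the Bcor, Ncor1, Irf4, Irf8, Pax5 and Gpr183 tiles. No tile (18 alternatives) and no CpG position (15 alternatives) of the window was called under any setting, and 0 to 4 tiles and 3 to 24 positions reached an unadjusted p under 0.05. Some settings called 0 in the whole genome and so say nothing of the window: limma for both, no moderation for tiles and the replicate block for positions.

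The reversed values lay between -2.03 and -0.0130 points, and some were larger in size than the main difference. That main difference was 0.514 points in the gene body without its start and 0.157 points for the upstream stretch minus the Pax5 body. With reads pooled over positions the difference between KO and WT was -2.03 points in the gene body without its start, -0.101 points at the Lpp end and -0.610 points for the upstream stretch minus the Pax5 body. That last comparison also gave -0.331 points at a coverage minimum of 20 and -0.0885 points at 30, and -1.12 to 1.49 points over the left-out libraries. Left-out libraries gave -0.255 to 0.909 points in the gene body without its start, -0.0130 to 0.0930 points at the gene start and -0.264 to 4.77 points in the tile at chr16:23971001-23972000. With 2 kb on either side the gene start gave -0.0575 points. The cause was not tested.

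The upstream stretch gave 2.47 to 4.77 points over all alternatives, 3.75 to 4.77 over the left-out libraries. Genome-wide the count of called tiles was 571, and 210, 712 and 1181 without WT replicates 1 to 3, 143, 119 and 156 without KO replicates 1 to 3, 8 with all covered tiles tested, and 0 with limma or without moderation. The corresponding counts of called CpG positions were 1544, then 544, 3104 and 3480, then 748, 630 and 725, then 207, and 0 with limma and 35 without moderation. Called gene ends numbered 8, with 0 to 46 over the alternatives, and called gene bodies 2, with 0 to 2.

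The labels give both groups replicate numbers 1 to 3 and do not say whether these pair the libraries. Deviations of same-numbered libraries correlated at 0.00718, -0.00290 and -0.000953, and those of differently numbered ones at -0.00897 to 0.00843. Values this small for both kinds cannot tell a pairing from none. With the number as a block, 0 tiles and 0 positions of the window were called, 893 tiles and 0 positions genome-wide, and the upstream difference of 4.48 points had an exact sign-flip p of 0.25, the smallest that 3 pairs allow. Some positions had as few as 10 reads in a library, and at a coverage minimum of 30 the window still had 0 called.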
